A study of Mus musculus with 6 samples.

Results

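The transcript levels of control Lgr5-high stem cells were described from 3 of the 6 libraries of the series, those titled as control Lgr5+ intestinal stem cells. They were chosen by that title alone. The mice were of the C57BL/6 strain with the genotype Lgr5-EGFP-IRES-CreERT2;Rosa-tdTomato. In the Lgr5 allele, green fluorescent protein and a tamoxifen-activated Cre recombinase are driven from the Lgr5 locus, and Cre switches on the red tdTomato reporter in the Rosa allele. Tamoxifen was given at 1 mg per injection on 5 consecutive days to every mouse of the series, the controls included, so these are cells of tamoxifen-treated mice. Crypts came from the proximal small intestine by scraping of the villi and incubation in 5 mM EDTA, a dissociation of 45 minutes followed, and the brightest EGFP cells were sorted. Ribosomal RNA was depleted from the total RNA, and stranded libraries were made. The labels do not give the age of the mice or the number pooled, and do not say whether the 3 replicates were separate mice.

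Lgr5, a receptor for R-spondins, marks the crypt base columnar cells, the cycling stem cells wedged between Paneth cells at the bottom of the crypt. R-spondins bound to Lgr receptors keep Wnt receptors at the cell surface, and the Wnt signal runs through beta-catenin to TCF factors and to targets such as Axin2 and Ascl2. Notch signals from neighbouring Paneth cells hold the stem cells out of the secretory lineages, EGF drives their division, and BMP signals that rise toward the villus are antagonised at the crypt base. The Lgr5-EGFP reporter is known to be patchy, so that some crypts do not carry it.

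The 3 libraries summed to 72246097, 77666540 and 61563625 reads on 53379 genes. Levels are given as counts per 1000000 counts of the library (CPM), which give ranks by reads, and as CPM per kilobase (CPM per kb), where the length is that of all exons of the gene merged. Levels of different genes are set against each other only per kilobase. Taking 3 counts as a floor, a gene with a count of 0 may stand at up to 0.0415, 0.0386 and 0.0487 CPM in replicates 1, 2 and 3, and this limit covers counting error only. Each value is a mean ± SD over the 3 libraries unless a single library is named. Neighbours in an order were taken as apart where their ranges over the 3 libraries did not overlap. No test was made, since the description covers 1 group.

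The libraries were not alike in every respect. Replicate 3 had 50 genes at least 2-fold above both other libraries (of genes with a mean of 10 CPM or more), against 14 for replicate 1 and 2 for replicate 2, and these 50 included all 18 genes of the Paneth cell list and further alpha-defensins outside it. That mean includes the library in question, so a gene high in 1 library alone can pass the limit through it. Nupr1 of the Paneth list did so, at 3.85, 4.53 and 31.6 CPM, and the counts of 50 and 14 rest in part on this. The summed level of that list was 2039, 2494 and 23373 CPM in replicates 1, 2 and 3. Values for genes that move with this library are given per library or with and without it. By their sex-linked transcripts, replicate 1 was male and the other libraries were female: Xist, the X-inactivation RNA, stood at 3.54, 2337 and 1750.0 CPM, and the Y-linked Ddx3y at 40.3, 0.0258 and 0 CPM. In bulk libraries such as these, fewer cells of a type and less RNA per cell cannot be told apart.

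The markers of the sorted cells were examined first, and all 26 genes of the stem cell list reached 1 CPM in each library. Olfm4, a secreted glycoprotein of crypt base cells, measured 7251, 7861 and 5592 CPM, a mean of 6901 ± 1174 CPM. It ranked 2 among nuclear protein-coding genes by CPM and made up 0.883 ± 0.149% of their reads. Without replicate 3 it ranked 1. Smoc2, a matricellular protein that binds calcium, measured 363, 443 and 360 CPM (389 ± 47.3). Lgr5 measured 133, 162 and 129 CPM (141 ± 18.01) and ranked 1127. Ascl2, a basic helix-loop-helix factor needed for the stem cell state, measured 43.5, 58.4 and 44.9 CPM (49.0 ± 8.21) and ranked 4033. For each of these 4 genes replicate 2 was the highest library.

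Per length the order of the 4 markers was Olfm4 at 2330.0 ± 396, Smoc2 at 137 ± 16.7, Ascl2 at 30.2 ± 5.06 and Lgr5 at 13.7 ± 1.75 CPM per kb. Their ranks per length among nuclear protein-coding genes were 6, 245, 1253 and 3166. The gene named in the sort was therefore the lowest of its 4 markers on this scale. These mice carry the reporter in the Lgr5 allele, and its effect on the Lgr5 level was not tested. The place of Lgr5 in that order depended on the length used: its merged exons span 10264 bases, and with the median length of its protein-coding transcripts it stood at 53.2 CPM per kb, above Ascl2 at 40.5. With the longest protein-coding transcript Lgr5 stood at 29.9 and Ascl2 at 30.5 CPM per kb. In mm10 coordinates Lgr5 lies at chr10:115450311-115587780, Olfm4 at chr14:79984081-80023139, Ascl2 at chr7:142966829-142969264 and Smoc2 at chr17:14279506-14404790.

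The sequences around the start sites of 4 abundant or marker genes are shown because they differ in a promoter feature. That feature is counted further on over genes with a single promoter window. Each runs from 50 bases before the RefSeq start to 20 bases from it (GRCm38.p6, 5′ to 3′ on the gene's strand), and capitals mark the letters TATAA. They lie at chr14:80000252-80000321 (plus strand, Olfm4), chr10:81176581-81176650 (plus strand, Eef2), chr7:142969245-142969314 (minus strand, Ascl2) and chr11:108920299-108920368 (plus strand, Axin2).
Olfm4: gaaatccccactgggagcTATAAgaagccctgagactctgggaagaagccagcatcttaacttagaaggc
Eef2: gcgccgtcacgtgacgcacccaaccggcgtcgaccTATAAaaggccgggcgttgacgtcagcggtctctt
Ascl2: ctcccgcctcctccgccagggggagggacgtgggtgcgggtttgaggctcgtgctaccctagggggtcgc
Axin2: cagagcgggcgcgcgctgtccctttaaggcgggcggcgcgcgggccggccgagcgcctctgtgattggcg
In Olfm4 the match began 32 bases before the start and in Eef2, translation elongation factor 2, it began 15 bases before. The windows of Ascl2 and Axin2 held no match. Nor did those of Clca3b and Pigr, also abundant, whose sequences are not printed. Counted over 300 bases, the Olfm4 window held 5 CpG dinucleotides, against 34 for Eef2, 23 for Ascl2 and 31 for Axin2. Clca3b held 7 and Pigr 4, so neither feature set the abundant genes as a group apart from the others. A match is a match of letters only.

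Most reads came from nuclear protein-coding genes, with 78.1 ± 0.31% of the counts, and 11653 of 21852 such genes reached 1 CPM in all 3 libraries. The pair Gm26917 and Gm42418, of ribosomal RNA-like sequence, took 15.9 ± 0.42%. Transcripts of the mitochondrial genome took 2.69, 1.97 and 2.53% in replicates 1 to 3, long non-coding RNAs 1.13 ± 0.11%, and the single structural RNA Rn7sk, which holds the elongation factor P-TEFb inactive, 1.12, 1.63 and 1.71%. Pseudogenes took 0.587% and small nuclear and nucleolar RNAs 0.122%. Each of these classes differed between libraries by less than 1 percentage point.

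The reads were concentrated in few genes. Over all genes 13118 reached 1 CPM in each library, 8914 reached 10, 1588 reached 100 and 50 reached 1000 CPM, while 22083 had no count in any library. Of the nuclear protein-coding genes 4238 had no count. The 539 highest genes held 50% of all counts, and among nuclear protein-coding genes alone it took 1052. Detected nuclear protein-coding genes had a median of 6.80 CPM per kb, with quartiles of 2.78 and 14.8, a 90th percentile of 31.6 and a 99th percentile of 291. Read against these, Lgr5 lay between the median and the upper quartile with the merged exon length, and Olfm4 lay far above the 99th percentile.

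**Figure D1:**
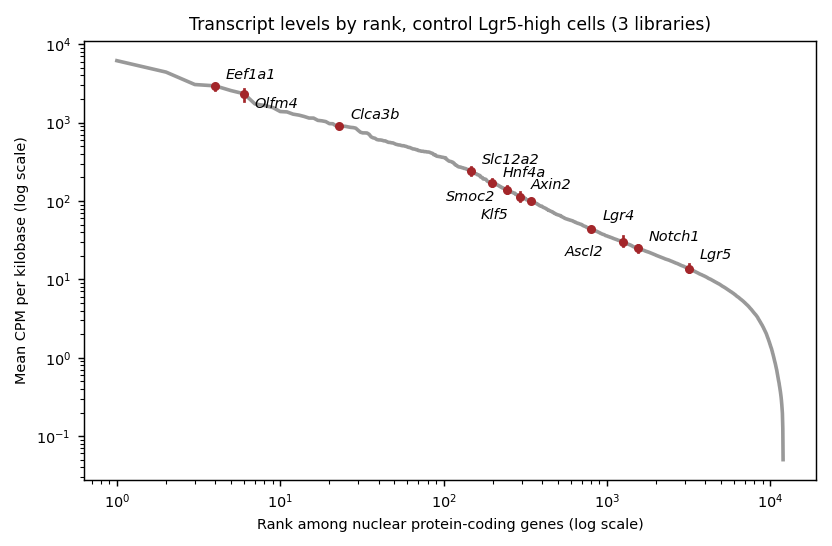
Mean CPM per kilobase (vertical axis, log scale) against rank (horizontal axis, log scale) for the 11977 nuclear protein-coding genes whose mean reached 1 CPM; red points mark named genes and red bars their range over the 3 libraries. Eef1a1 and Olfm4 lie within the first 6 ranks and Lgr5 at rank 3166.

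Among nuclear protein-coding genes the most reads went to genes of protein synthesis and folding, of secretion and of the stem cell list. Eef1a1, which brings aminoacyl-tRNA to the ribosome, measured 6568, 7649 and 7743 CPM (7319.6 ± 653), and Eef2, which moves the ribosome along, 3972 ± 441 CPM. Pigr, the receptor that carries polymeric antibodies across the epithelium, measured 3640 ± 318 CPM with 3627, 3964 and 3329 in the single libraries. Cps1, the mitochondrial carbamoyl phosphate synthetase of the urea cycle, measured 3114, 3703 and 2339 CPM, lowest in replicate 3. Clca3b, a member of the calcium-activated chloride channel regulator family and of the stem cell list, measured 3013 ± 102 CPM and varied little. The cytosolic chaperones Hsp90ab1 (2894 ± 103 CPM) and Hspa8 (3240, 2802 and 2199 CPM) followed, and Dmbt1, a mucosal glycoprotein that binds bacteria, measured 2745 ± 427 CPM. Rpl4, Rplp0, Rps2, the non-muscle myosin Myh9 and Actb completed the first 15 together with Defa24, at 546, 743 and 6444 CPM. Of these 15, 14 stayed in the first 15 without replicate 3.

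Per length, Paneth genes, ribosomal proteins, both elongation factors and Olfm4 filled the first 15 places, and each of the Paneth genes was far higher in replicate 3. Defa24, an antimicrobial peptide of Paneth cell granules, measured 1302, 1774 and 15380 CPM per kb, and Lyz1, the Paneth cell lysozyme, 317, 255 and 3264. Eef1a1 at 2936 ± 262, Rplp1 at 1728 ± 119.6 and Rps15 at 1556 ± 128 CPM per kb held their places more evenly. Without replicate 3, 11 of the 15 stayed, among them Defa24 at rank 4 and Defa30 at rank 13, and Olfm4 moved from rank 6 to rank 2. The 4 that left were Gm14851, Defa17, AY761184 and Lyz1. With the median length of protein-coding transcripts 8 of the 15 were the same, and with the longest 11.

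The wider stem cell list spanned a large range per length, from 2330.0 CPM per kb for Olfm4 to 6.80 for Nrn1, with a median of 26.7, where all detected nuclear protein-coding genes had a median of 6.80. Clca3b at 896 ± 30.4 and Slc12a2, a sodium-potassium-chloride cotransporter, at 241 ± 28.8 CPM per kb were apart from each other and from Smoc2. Below them lay Cdca7, a Myc target, at 119.6 ± 20.2 and Axin2 at 114 ± 14.5 CPM per kb, whose ranges overlapped with that of Smoc2. With the median length of protein-coding transcripts Axin2 stood higher, at 758 CPM per kb. Rgmb, a BMP co-receptor, followed at 88.5 ± 11.2, then Sox9 at 56.1 ± 2.25 and Prom1, a membrane protein of protrusions, at 53.2 ± 3.93 CPM per kb. Each neighbouring pair from Ascl2 down to Msi1, an RNA-binding protein, overlapped in range. In the single libraries the list summed to 16103, 17283 and 13735 CPM, highest in replicate 2 and lowest in replicate 3.

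Genes ascribed to reserve or injury-revived stem cells were present unevenly. Lrig1, a brake on EGF receptor signalling, measured 427, 448 and 411 CPM (76.7 ± 3.34 CPM per kb), and Hopx, an atypical homeodomain protein, 74.5, 83.6 and 83.8 CPM (53.2 ± 3.52 CPM per kb). Both lay above the 90th percentile of detected genes. Bmi1, a Polycomb protein, measured 4.28 ± 0.52 CPM per kb, the RNA-binding Mex3a 3.75 ± 0.58 and the telomerase subunit Tert 2.97 ± 0.13. Clu, a marker of revival stem cells, stood at 1.61 CPM per kb, while Ly6a at 0.512, 0.0515 and 0.195 CPM and Anxa1 at 0, 0.0773 and 0.065 CPM were near the floor. Of the 9 genes, 7 reached 1 CPM in every library.

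On the Wnt pathway, with the merged exon length, the leading receptors and the target Axin2 lay above the median of detected genes. The TCF factors lay near or below it with that length. Of the R-spondin receptors, Lgr4 measured 262, 268 and 242 CPM and Lgr6 was at or near the floor with 0, 0.0258 and 0.065 CPM. Lgr4 stood at 43.8 ± 2.33 CPM per kb and Lgr5 at 13.7, with no overlap, an order that turned with the median transcript length (51.3 for Lgr4 and 53.2 for Lgr5) and held with the longest (50.9 and 29.9). Among the Wnt receptors Fzd5 led with 35.7 ± 3.81 CPM per kb, followed by Fzd7 at 16.2 ± 1.12, and the co-receptors Lrp5 and Lrp6 stood at 17.9 ± 0.11 and 10.8 ± 1.10. In total 10 of the 12 frizzled and LRP genes listed reached 1 CPM in all 3 libraries.

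In the destruction complex and around it, Axin2 measured 621, 708 and 548 CPM and beta-catenin (Ctnnb1) 532, 545 and 507 CPM, or 114 ± 14.5 and 102 ± 3.72 CPM per kb. Apc, the scaffold lost in many colorectal tumours, measured 9.14 ± 1.49 CPM per kb, and its relative Apc2 0.273. The kinases Gsk3a, Gsk3b and Csnk1a1 stood at 30.4 ± 2.14, 11.7 ± 1.26 and 24.8 ± 0.11 CPM per kb. Of the TCF factors, Tcf7 at 7.80 ± 1.14 and Tcf7l2 at 6.50 ± 0.54 CPM per kb led Lef1 (0.300) and Tcf7l1 (0.0884). Under both other lengths Tcf7l2 stood above Tcf7, at 19.4 against 9.73 CPM per kb with the median transcript and 15.3 against 8.29 with the longest.

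Wnt ligands themselves were scarce. Of 19 Wnt genes 3 reached 1 CPM in every library and 3 had no count. Wnt3, the ligand made by Paneth cells, measured 4.96, 4.18 and 9.81 CPM, highest in the library with the highest Paneth genes, and Wnt9b 3.28 ± 0.10 CPM. Among negative regulators Rnf43, the ubiquitin ligase that removes frizzled receptors, measured 234, 238 and 198 CPM (34.1 ± 3.33 CPM per kb) and its relative Znrf3 6.81 ± 0.92 CPM per kb. Sfrp5, a secreted Wnt antagonist, measured 46.3, 56.9 and 41.2 CPM (25.3 ± 4.23 CPM per kb). The other secreted antagonists listed lay far lower, with Sfrp2 next at 0.199 CPM per kb.

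The Notch pathway was represented by receptors, ligands and targets alike. Notch1 measured 363, 386 and 314 CPM (24.9 ± 2.58 CPM per kb) and Notch2 11.8 ± 1.45 CPM per kb, while Notch4 and Notch3 stood at 0.932 and 0.172. Its ligand Dll1 measured 82.1, 89.8 and 113 CPM (22.5 ± 3.81 CPM per kb) and Dll4 29.7, 32.6 and 46.0 CPM (9.38 ± 2.25). Both ligands were highest in replicate 3. The target Hes1, a repressor of secretory fate, measured 149, 131 and 165 CPM (72.7 ± 8.39 CPM per kb), and Hes6 stood at 36.1 ± 1.72 CPM per kb. Hes5 at 1.10 CPM per kb and the Hey genes lay far below. All neighbours among the Notch receptors and among the 5 ligands were apart, in the same order under each length.

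Of the EGF receptor family, Erbb3, a receptor with an impaired kinase that signals through its partners, led with 326, 364 and 383 CPM (59.5 ± 4.76 CPM per kb). Erbb2, the partner without a known ligand, followed at 34.9 ± 2.45 and Egfr at 8.53 ± 0.43 CPM per kb, and Erbb4 had no count in any library. That order held under each length.

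Of the BMP receptors, the type I receptor Bmpr1a measured 81.2, 76.3 and 62.5 CPM (11.6 ± 1.52 CPM per kb), and its relative Bmpr1b had no count. The type II receptors Acvr2a, Acvr2b and Bmpr2 lay close together at 4.66 ± 0.40, 4.55 ± 0.24 and 3.35 ± 0.23 CPM per kb. Among the signal carriers Smad4, the common partner, stood at 28.4 ± 2.69 CPM per kb, first with the merged and the longest length, while Smad3 was first with the median transcript (104, against 37.5 for Smad4). The inhibitor of DNA binding Id1, a BMP target, measured 85.0, 89.2 and 113 CPM (82.4 ± 12.8 CPM per kb), above Id3 at 40.9 ± 7.66, Id2 at 22.1 ± 1.01 and Id4 at 0.628.

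**Figure D2:**
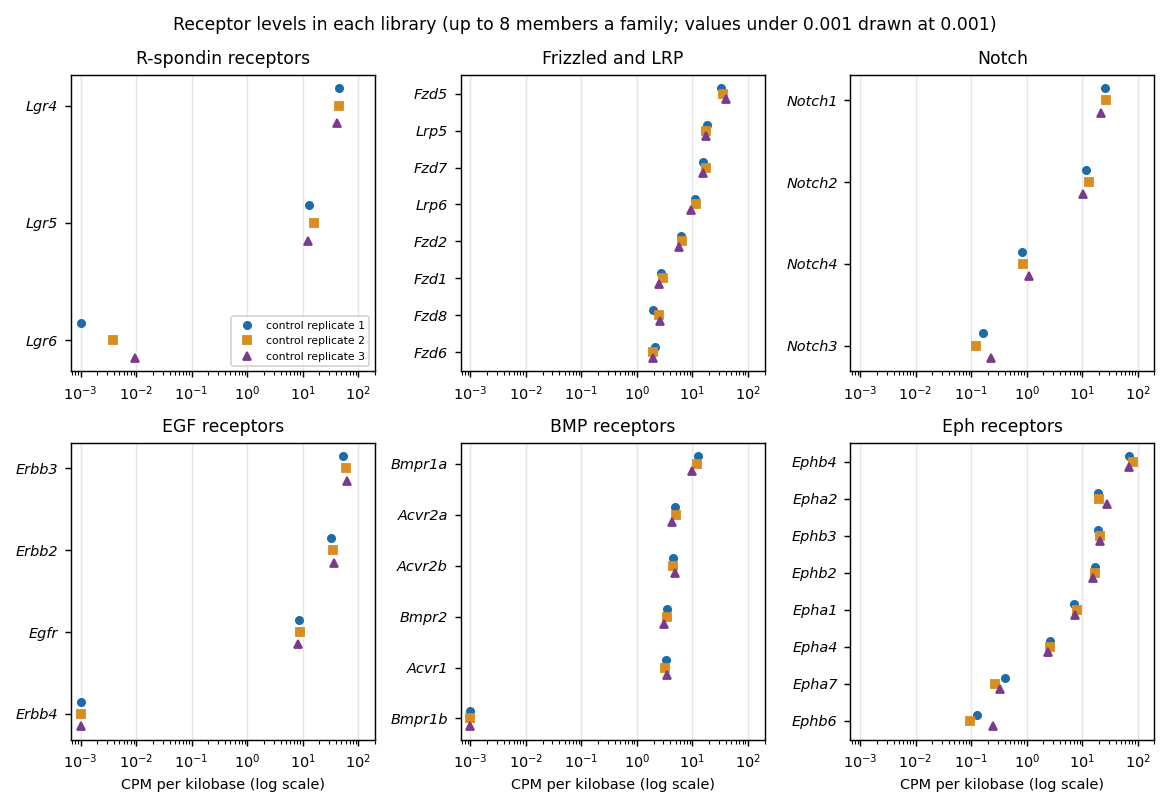
CPM per kilobase (horizontal axis, log scale) of up to 8 members of each of 6 receptor families, 1 symbol for each control library. Symbols of 1 gene lie close together beside the distances between most members, and Lgr6, Erbb4 and Bmpr1b lie at or near the left edge.

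Among the listed transcription factors, immediate early factors and factors of the intestinal epithelium stood highest. Jund at 311 ± 20.1, Jun at 285 ± 35.6 and Fos at 219.5 ± 40.3 CPM per kb, all AP-1 subunits, led the order. Fos measured 494, 435 and 620.4 CPM in the single libraries, highest in replicate 3, as was each of Jun, Junb and Egr1. Such immediate early genes respond within minutes to many stimuli. The order of the factors depended in part on the length, since Hnf4a stood at 326 CPM per kb with the median length of protein-coding transcripts and at 189 with the longest, against 311 for Jund with either. The stress list that holds them summed to 4157, 3528 and 5089 CPM.

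Hnf4a, the nuclear receptor that drives enterocyte genes, measured 802, 920.2 and 746 CPM (170.4 ± 18.4 CPM per kb). The caudal homeobox factors that set intestinal identity followed, Cdx1 at 131 ± 7.95 and Cdx2 at 75.5 ± 5.55 CPM per kb. Isx, a homeobox factor of the gut that controls vitamin A uptake, measured 55.6 ± 6.84 CPM per kb. Gata6 at 43.3 ± 1.86 and Gata4 at 40.5 ± 4.29 CPM per kb overlapped, and Hnf4g, a relative of Hnf4a, stood lower at 21.3 ± 3.11. All 13 genes of this group reached 1 CPM in each library, down to the pioneer factor Foxa2 at 8.42 ± 0.07 CPM per kb.

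Klf5, the zinc finger factor that is intact by label in these mice, led the Krüppel-like family with 484, 508 and 550.0 CPM (98.8 ± 6.45 CPM per kb). Klf4, a factor of differentiating and goblet cells, measured 122, 103 and 180 CPM (44.3 ± 13.1 CPM per kb), Klf6 24.6 ± 5.83 and Klf10 16.7 ± 2.66 CPM per kb. Klf5 was first with the merged and the longest transcript length, while Klf13, named here after its values were seen, was first with the median length (191, against 166 for Klf5). Of the 17 members 12 reached 1 CPM in all libraries.

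Sox4 at 56.3 ± 2.31 and Sox9 at 56.1 ± 2.25 CPM per kb overlapped and led the Sox family, in which 6 of 18 members reached 1 CPM in each library. Myc measured 273, 293 and 257 CPM (101 ± 6.71 CPM per kb), apart from Mycl at 23.7 ± 2.63 and from its partner Max at 11.9 ± 1.14 CPM per kb. The pluripotency factors Pou5f1 and Sox2 were at 0.00858 and 0.0783 CPM.

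**Figure D3:**
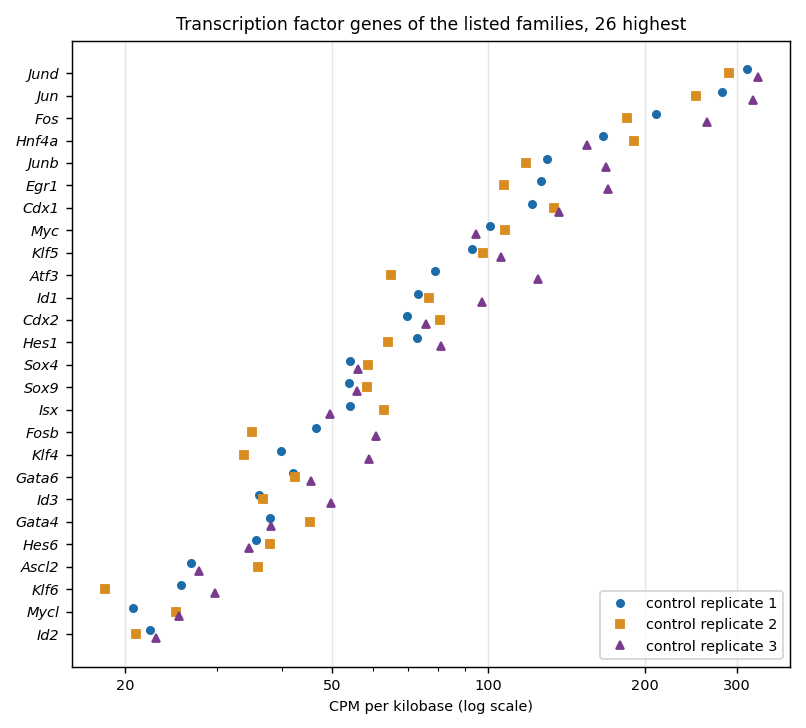
CPM per kilobase (horizontal axis, log scale) of the 26 highest transcription factor genes of the listed families in each of the 3 control libraries. Replicate 3 is the highest library for AP-1 genes such as Jun and Fos, and replicate 2 for Hnf4a, Myc and Ascl2.

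Genes that mark the proximal small intestine were detected, as were some listed as distal. Gata4, which marks the proximal small intestine, measured 148, 177 and 149 CPM, Onecut2 189, 176 and 157 CPM, and the duodenal factor Pdx1 14.1, 14.4 and 14.4 CPM. Per length Pdx1 stood at 6.64 CPM per kb. The other genes listed as proximal were lower, with Nr1i3 at 1.398, Slc40a1 at 0.553 and Cybrd1 at 0.488 CPM per kb. Of the genes listed as distal, the bile acid binding protein Fabp6 stood at 0.277 CPM per kb (0.133 CPM). The bile acid transporter Slc10a2 stood at 0.147 CPM per kb (0.612 CPM). Osr2 was higher at 4.22 CPM per kb (15.3 ± 0.48 CPM), as was the bile acid receptor Nr1h4 at 7.87 (18.1 ± 3.29 CPM). By mean CPM per kb, Osr2 and Nr1h4 stood above the proximal genes Nr1i3, Slc40a1 and Cybrd1. The colonic enzyme Car1 had no count. Hox genes were low: of the Hoxa genes 4 of 11 reached 1 CPM in each library, with Hoxa3 at 5.40 ± 0.62 and Hoxa7 at 3.09 ± 0.74 CPM, and of 10 Hoxb, 9 Hoxc and 9 Hoxd genes none did.

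Genes of the translation machinery held a large part of the reads. All 47 large-subunit and all 32 small-subunit ribosomal protein genes reached 1 CPM in each library, and they summed to 31332, 33825 and 35494 CPM and to 23662, 25263 and 27574 CPM. Both sums were lowest in replicate 1 and highest in replicate 3. Rpl24 stood apart at 1.35 ± 0.17 CPM. Many ribosomal protein genes have near-identical processed copies elsewhere in the genome, so their levels are uncertain. The nucleolar genes Npm1 and Ncl measured 603 ± 32.4 and 1197 ± 131 CPM, and all 12 genes of the nucleolar list were detected.

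For most enzymes of glucose use, 1 isoform held most of the family's level. Of the hexokinases Hk2 stood at 20.04 ± 0.79 CPM per kb and Hk1 at 0.583, so that Hk2 held 95.3% of the family's summed CPM per kb. Lactate dehydrogenase was nearly all Ldha, with 463, 402 and 481 CPM (136 ± 12.5 CPM per kb), while Ldhb and Ldhc stood at 0.750 and 0.712 CPM. Pkm at 54.0 ± 5.89 exceeded Pklr at 17.7 ± 2.21 CPM per kb, and Eno1 at 34.2 ± 1.85 exceeded Eno3 at 4.61. The glucose transporter Slc2a1 was modest at 6.75 ± 0.90 CPM per kb.

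All 24 nuclear respiratory chain and ATP synthase genes listed were detected, with Atp5b at 1339, 1428 and 1572 CPM and Atp5a1 at 1104, 1217 and 1168 CPM. The 13 mitochondrial coding genes summed to 26857, 19692 and 25117 CPM. The cytochrome oxidase subunit mt-Co1 measured 12300.2 ± 1385 CPM and mt-Cytb 4449.7 ± 900.4 CPM, but mt-Co2, mt-Co3 and mt-Atp6 were at 22.5, 25.4 and 18.2 CPM, and such gaps between genes cut from shared precursor transcripts leave those low values uncertain. The counting, by its command, set no option for reads that map to several places.

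The sorted cells expressed the genes of the dividing cell. All 20 mitosis genes and all 20 DNA replication genes listed reached 1 CPM in each library. Mki67, the proliferation antigen, measured 1378, 1185 and 751 CPM, and topoisomerase Top2a 574, 450.3 and 371 CPM, each highest in replicate 1 and lowest in replicate 3. Cdc20, the activator of the anaphase-promoting complex, measured 106, 101 and 103 CPM, with no such order. The mitosis list summed to 3984, 3407 and 2597 CPM and the replication list to 2242, 2162 and 1794 CPM. Both lists were lowest in the library with the highest Paneth genes, a relation whose cause was not tested.

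Transcripts of the replication-dependent histone clusters, a group picked by symbol after its values were seen, were detected for 62 of 67 genes and summed to 11267, 9470 and 9590 CPM. These transcripts end without a poly(A) tail and stay in libraries made by removal of ribosomal RNA. Pcna, the replication clamp, measured 231, 209 and 232 CPM, and the helicase subunits Mcm6 and Mcm3 48.0 ± 6.88 and 41.5 ± 7.15 CPM per kb. Of the G1 cyclins, Ccnd2 measured 249, 408 and 236 CPM, with replicate 2 well above the others, and Ccnd1 137, 117 and 79.2 CPM. Their ranges per length overlapped, at 31.6 ± 10.2 and 23.6 ± 6.24 CPM per kb.

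Of the inhibitors of the cell cycle, Cdkn1b (p27) at 13.9 ± 0.26 and Cdkn1a (p21) at 13.8 ± 5.06 CPM per kb overlapped, and the first of them was Cdkn1b with the merged and the median length and Cdkn1a with the longest. Cdkn2a, the senescence locus, had 0, 0.0258 and 0 CPM. Of the chromatin regulators, Dnmt1, the maintenance DNA methyltransferase, stood at 53.1 ± 8.46 and its partner Uhrf1 at 44.3 ± 4.69 CPM per kb. Dnmt1 led its list with the merged and the longest length, but Dnmt3a did with the median. All 14 Polycomb genes listed were detected, led by the histone chaperone Rbbp7 at 69.4 ± 3.53 CPM per kb.

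Genes of epithelial structure were abundant. Krt8, the type II keratin of simple epithelia, measured 1425, 1559 and 1715 CPM (868 ± 80.5 CPM per kb), and its partners Krt18 at 413 ± 56.4 and Krt19 at 361 ± 41.5 CPM per kb overlapped. Krt20, which marks differentiated cells, stood at 19.6 ± 7.06 CPM per kb, and the basal keratins Krt14 and Krt5 at 0.0251 and 0 CPM. Epcam measured 1108, 1074 and 1054 CPM and E-cadherin (Cdh1) 1047 ± 75.2 CPM. Of the claudins, Cldn3 at 198 ± 24.6 and Cldn7 at 154 ± 2.40 CPM per kb led with the merged length, and Cldn7 led with both others. Cldn15 and Cldn2, which form cation pores, stood at 99.3 ± 2.66 and 47.0 ± 4.98 CPM per kb.

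Eph receptors, which sort crypt cells by position, were led by Ephb4 with 321, 376 and 327 CPM (73.5 ± 6.49 CPM per kb). Ephb3 at 20.1 ± 0.98 and Ephb2 at 16.6 ± 0.68 CPM per kb, both Wnt targets, were lower. Itga6, the laminin receptor subunit, measured 468, 500 and 413 CPM (51.0 ± 4.85 CPM per kb) and led the alpha integrins, ahead of Itga3 at 16.9 ± 1.69 CPM per kb. Of the actins Actb and Actg1 stood at 752 ± 20.5 and 506 ± 42.0 CPM per kb, and the smooth muscle actin Acta2 at 0.0643 CPM.

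Transcripts that define other epithelial lineages were detected as well, and they varied between libraries in different ways. All 18 Paneth genes, all 17 goblet genes and all 25 enterocyte genes reached 1 CPM in each library, as did 23 of 25 enteroendocrine and 16 of 20 tuft cell genes. The median of the Paneth list was 47.4, 50.6 and 621 CPM per kb in replicates 1, 2 and 3. It was 24.7, 31.5 and 24.5 CPM per kb for the stem cell list. The Paneth list thus lay above the stem cell list in each library by this measure, and without replicate 3 its median was 54.5 CPM per kb. By summed CPM per kb the order turned in replicate 1, with 3767 for the Paneth list and 4497 for the stem cell list. These sums were 4883 and 4821 in replicate 2, and 43781 and 3805 in replicate 3. Both measures rest on the merged exon length.

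Of the Paneth genes, the lectin Itln1 measured 209, 259 and 2594 CPM, the angiogenin Ang4 25.3, 62.3 and 843 CPM and the protease Mmp7 45.2, 41.3 and 263 CPM. Alpha-defensin genes are near-identical copies, so single members are uncertain. Goblet genes differed in their order of libraries. Muc2, the gel-forming mucin, measured 423, 332 and 536 CPM, Tff3, the trefoil peptide, 162, 163 and 202 CPM, and Fcgbp, a mucus protein, 1702, 1520 and 1154 CPM. Together the goblet genes summed to 2753, 2456 and 2420 CPM, highest in replicate 1, whereas the median of the list was 11.4, 11.4 and 17.0 CPM per kb, highest in replicate 3. The chemokine Ccl6, named after its values were seen, measured 20.4, 16.1 and 101 CPM.

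Enteroendocrine genes summed to 220, 248 and 513 CPM, with the peptide Reg4 at 14.9, 18.4 and 124 CPM and the granule protein Chgb at 94.4, 108 and 201 CPM, both highest in replicate 3. Neurog3, the factor that starts the endocrine lineage, measured 6.37, 13.2 and 13.8 CPM. The tuft cell list summed to 406, 430 and 451 CPM, of which Cd24a, which Paneth cells also carry, gave 248, 262 and 318 CPM. The tuft cell channel Trpm5 measured 28.8, 36.2 and 23.0 CPM. Enterocyte genes summed to 3349, 3101 and 3492 CPM, led per length by villin (Vil1) at 129 ± 4.72 CPM per kb, with the lipid carrier Fabp2 at 112 ± 6.84 and the apolipoprotein Apoa1 at 105, 46.5 and 94.8 CPM.

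Markers of cells outside the epithelium were low. Of 12 T and NK cell genes 1 reached 1 CPM in each library (their sum was 24.8, 7.02 and 14.5 CPM), and of 13 myeloid genes 2 did. The myeloid genes summed to 38.0, 27.4 and 47.6 CPM, of which Cd68, a lysosomal protein of macrophages, gave 20.8, 16.8 and 30.3 and Cd14, a co-receptor for lipopolysaccharide, 15.5, 9.44 and 13.4, while S100a8 and S100a9 had no count. The 10 B and plasma cell genes summed to 112, 101 and 104 CPM, of which Xbp1, which secretory epithelium also uses, gave 107, 94.9 and 97.2. Stromal genes summed to 8.51, 9.28 and 12.5 CPM, endothelial genes to 7.64, 7.65 and 9.34 CPM, and erythrocyte genes to 0.983, 0.064 and 1.32 CPM. Enteric glia and neuron genes summed to 4.16 ± 0.54 CPM and pancreatic genes to 3.36 ± 0.92 CPM.

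**Figure D4:**
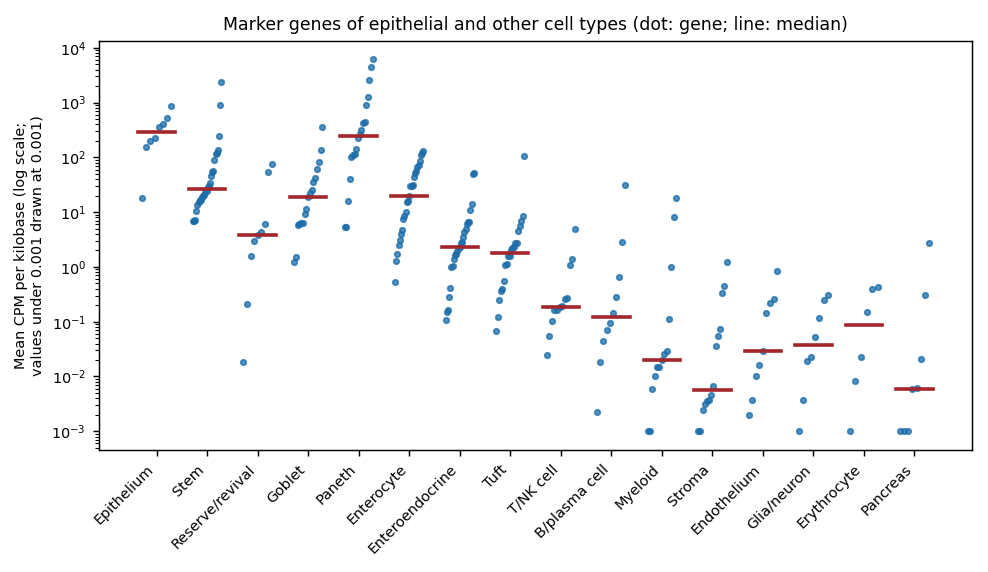
Mean CPM per kilobase over the 3 control libraries (vertical axis, log scale) of each marker gene, by cell type list, with a line at each list's median. The medians of the stem cell, goblet, Paneth and enterocyte lists lie above 10, those of the non-epithelial lists below 1, and the Paneth median of 243 falls to 54.5 without replicate 3.

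Long non-coding RNAs were led by Malat1, a nuclear speckle RNA, at 3387, 3135 and 2723 CPM (441 ± 48.0 CPM per kb). Neat1, which builds paraspeckles, measured 316, 201 and 428 CPM, and the snoRNA host Gas5 189, 179 and 243 CPM. The telomerase RNA Terc measured 22.7, 28.9 and 21.6 CPM.

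The 3 libraries agreed closely for most genes. Over the 9212 genes whose mean reached 10 CPM the median coefficient of variation (CV, SD over mean) was 8.36%, against 1.83% from counting error alone, and the 90th percentile was 18.4%. In 5597 of these genes (60.8%) the CV was under 10%, and in 74 it exceeded 50%. Over 2 libraries the median CV was 7.80% without replicate 1, 8.24% without replicate 2 and 4.94% without replicate 3. A CV of 2 values reads lower on median than a CV of 3, so these compare with each other only. Replicates 1 and 2 lay within 1.5-fold of each other for 98.1% of genes, replicates 1 and 3 for 95.6% and replicates 2 and 3 for 95.8%.

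Among nuclear protein-coding genes of at least 50 CPM, the 8 with the highest CV were all Paneth genes: Ang4 at 149%, then Mptx2, Defa26, Defa3, Lyz1, Defa5, Itln1 and Defa30, down to 133%. The 8 with the lowest CV were Jpt1 at 0.142%, Ube2d2a, Stk25, Nelfb, Uaca, Mef2d, Washc2 and Dazap2 at 0.341%. Jpt1 measured 159.2, 159.4 and 159.0 CPM. These CVs lay below the counting error of 0.944% for Jpt1 and 1.08% for Dazap2. The mitosis genes were intermediate, with Mki67 at 29.1%.

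**Figure D5:**
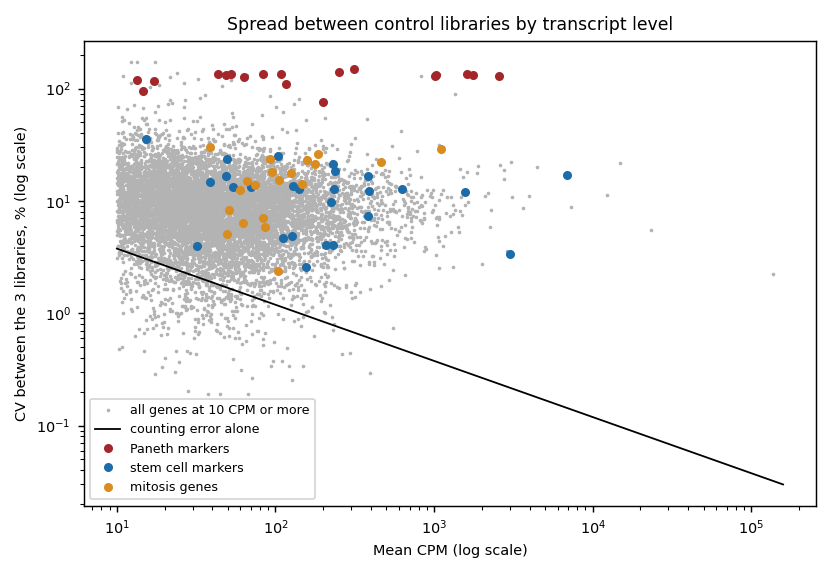
Coefficient of variation between the 3 control libraries in percent (vertical axis, log scale) against mean CPM (horizontal axis, log scale), 1 dot for each gene of at least 10 CPM, with the line that counting error alone gives. Paneth genes (red) lie between 75.4 and 149%, above nearly all stem cell (blue) and mitosis genes (orange).

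The TATAA letters shown above for Olfm4 and Eef2 were counted in promoters matched by symbol, for 13826 nuclear protein-coding genes with a single RefSeq window (GRCm38.p6). Genes whose symbol had more than 1 window were left out. The motif, read on both strands in the 50 bases before the start, was in 6.33% of promoters on the gene's strand and in 2.67% on the other strand. Among the 200 of these genes with the highest CPM per kb 26 (13%) held it on the gene's strand. Among the 7335 of them detected in all 3 libraries 2.92% did, and among the 2855 of them without a count 12.6%. The 26 included Olfm4, Eef2, Rps26, Krt18, Fos and Fcgbp, named here after their values were seen. The median number of CpG dinucleotides in 300 bases was 21 in the 200 highest, 21 in the detected genes and 2 in genes without a count. These shares are descriptions, without a test, and the list of the highest genes rests in part on Paneth genes of replicate 3.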

How the data were processed

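RNA sequencing of 3 control libraries was described from the deposited read counts per gene. Per the submitters' processing notes, STAR 2.5.2a, featureCounts 1.4.3-p1 and DESeq2 1.18.1 were used with mm10. Per the file headers, the authors counted reads of the reverse strand on GENCODE vM16, and the command sets no option for reads that map to several places, so genes with near-identical copies are uncertain. The deposited counts are not normalized. The deposited length column, used as it stands, is the merged exon length of each gene.

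Symbols and biotypes came from GENCODE vM21, which matched 53274 of 53379 gene IDs. CPM is the count per 1000000 counts of the library, and CPM per kilobase divides it by the merged exon length in units of 1000 bases. Merged exons can be far longer than any transcript, so lengths of protein-coding transcripts were tried beside them (chosen after seeing the data). A gene counts as detected at 1 CPM in all 3 libraries. No p-value was computed. The scripts (Python 3.11.15, pandas 2.3.3, R 4.3.3) were tested on simulated counts.

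The libraries and 74 gene lists were chosen with earlier results of these data known. Named genes are the 4 markers, the 15 highest nuclear protein-coding genes by each scale, the 4 highest and the lowest of each list, any member of a family of up to 13, and the 8 genes of highest and of lowest CV. For the CV choice provisional symbols were left out. Apoa1, Cdca7, Mmp7, Msi1, Neat1, Neurog3, Prom1, Rgmb and Trpm5 fall outside this rule and were named after their values were seen, as were others that the text says so of and the genes on no list that the other observations name. Alternatives were TMM (edgeR 4.0.16) and DESeq2 1.42.0 size factors as library sizes, a total without mitochondrial and ribosomal RNA-like genes, other minimum levels and leaving out each library. The file of control replicate 1 gives another strand for 4 genes. Depth was 61563625 to 77666540 counts, and the count floor of 3 was 0.0386 to 0.0487 CPM. Values of some listed genes are not reported here.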

Additional observations from a re-analysis of the deposited data

How the results depend on the processing

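Of 82 recomputed values, all 82 moved by less than the spread between libraries (counts: by less than 1.5 times) with TMM and with DESeq2 size factors, and all 82 without control replicate 1 or without control replicate 2. Without control replicate 3, 81 of 82 did. Leaving out 1 of 3 libraries cannot move a mean level by as much as its SD. For levels, the counts over these omissions were therefore fixed in advance and show nothing about stability. Shares of all counts cannot change with size factors either. The median CV ranged from 4.94 to 8.24% over the 3 omissions, the lowest without replicate 3. With mitochondrial and ribosomal RNA-like genes left out of the total, 22 of 79 values moved by less than the spread between libraries. That total gave 1016 genes for 50% of counts, a share of the 10 highest genes of 6.30%, 95.7% of counts in nuclear protein-coding genes, and 173 CPM for Lgr5, 8449 for Olfm4, 59.9 for Ascl2 and 476 for Smoc2, since a smaller total raises each CPM. Per kilobase, 82 genes held 50% and the 10 highest 33.9%. The Paneth sum was 2267 CPM without replicate 3, against 9302, a fall that still lay within its SD of 12188 CPM.

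With other transcript lengths the first gene stayed the same in 26 of 37 families. Levels between genes of a family that change place with the length are not resolved by these counts. No paired analysis was possible because the results come from 1 group and no test. Depth limits only genes near the floor of 3 counts.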

Other observations

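Some genes of antigen presentation and 2 antimicrobial lectins were highest in replicate 1. They are on no list and are named after their values were seen, so they stand for no group. The MHC class II chains H2-Aa and H2-Ab1 measured 137, 43.9 and 66.9 CPM and 334, 115 and 171 CPM in replicates 1, 2 and 3. Their invariant chain Cd74 measured 900.0, 391 and 551 CPM, and Ciita, the factor that switches on MHC class II genes, 88.0, 30.0 and 44.1 CPM. The lectin Reg3g, which kills Gram-positive bacteria, measured 223, 30.9 and 138 CPM, and its relative Reg3b 180, 23.8 and 74.3 CPM. In each of these 6 genes replicate 1 was the highest library and replicate 2 the lowest. Other lectins were highest in replicate 3, with Reg1 at 17.6, 6.12 and 22.4 CPM and Itln1 at 209, 259 and 2594 CPM. The T and NK cell genes summed to 24.8, 7.02 and 14.5 CPM, in the order of the 6 genes, and the myeloid genes to 38.0, 27.4 and 47.6 CPM, in another order. Their part in these values was not tested.

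Genes at least 2-fold above both other libraries in replicate 3 that are not on the Paneth list included the alpha-defensin genes Defa29 (14.4, 5.86 and 112 CPM), Defa2, Defa34 and Defa20, as well as the matrix protein Thbs1, the immediate early receptor Nr4a1, the hormone precursor Guca2b and both mitochondrial ribosomal RNAs, mt-Rnr1 and mt-Rnr2. Replicate 2 had 2 such genes, Fkbp5, a target of glucocorticoids, and Tef, a factor of the daily clock. In replicate 1 the clock gene Cry1 was at least 2-fold above both others, and Nr1d1, a clock repressor, at least 2-fold below them. These genes too are named after their values were seen.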
